A study of Mus musculus with 15 samples.

Results

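The genes described here, 10 of the phosphatase network that opposes the mitotic and meiotic kinases, were followed across single mouse oocytes. They encode the 3 catalytic subunits of protein phosphatase 1 (PP1: Ppp1ca, Ppp1cb, Ppp1cc), 2 PP1 inhibitors (Ppp1r2, Ppp1r11), the catalytic and scaffold subunits of protein phosphatase 2A (PP2A: Ppp2ca, Ppp2cb, Ppp2r1a), the Greatwall kinase (Mastl) and its substrate Ensa. All 10 were found by symbol among the 28785 gene IDs of the count files. The set was chosen by the counts of these same oocytes, because Ppp1r11 was among the genes highest in MII, so its MII/GV ratio is a description and supports nothing.

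The samples were 9 fully grown oocytes at the germinal vesicle (GV) stage, arrested in meiotic prophase, and 6 eggs at the MII stage, which wait in second meiotic metaphase for fertilisation. Both came from female mice of 6 to 8 weeks that had received 7 IU of pregnant mare serum gonadotropin, and the labels name no strain, genotype or individual mouse. GV oocytes were taken 44 h after that injection, whereas MII donors also received 7 IU of human chorionic gonadotropin at about 48 h and were sampled 20 h later, with cumulus cells removed by hyaluronidase at 300 IU/mL. RNA was amplified from each oocyte by MATQ-seq, a total-RNA method, and the question posed by the design is how transcript levels differ between the stages.

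PP1 and PP2A remove phosphate from serine and threonine, and both owe their specificity to regulatory subunits that bind a small number of catalytic subunits. During M phase the Greatwall kinase phosphorylates Ensa and its paralogue Arpp19, which then bind and inhibit PP2A carrying a B55 regulatory subunit, so that substrates of Cdk1 and cyclin B stay phosphorylated. PP1 and PP2A-B55 act again at the exit from M phase, and in mouse oocytes Mastl is known for its role in the passage between the meiotic divisions.

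Each oocyte is 1 cell with no mouse named, so each stage counted as 1 sample and no test was made. Total counts were 3687610 to 7103063 in GV and 808641 to 2348281 in MII oocytes. One unnamed feature (ENSMUSG00000119584) took 15.7% to 61.2% of MII counts, 3.43% to 11.2% in GV7 to GV9 and 0 in GV1 to GV6. The files of GV1 to GV6, of GV7 to GV9 and of the MII oocytes also carry 3 kinds of column header, so stage and kind of file cannot be told apart. Levels are given as CPM, the usual scaling of counts to a common total for each oocyte or stage. Log2 ratios MII/GV were taken relative to the median of 10090 measured genes (at least 5 CPM in the higher stage), whose own log2 ratio in CPM was −0.98. The ± value after a ratio combines the SDs of both stages over oocytes and is called the spread; it is not a standard error. In MII5 and MII6 short transcripts stood higher than in MII1 to MII4: the median difference was 0.92 and 0.84 on the log2 scale for genes with transcripts of 297 to 1940 bases and −1.03 and −0.86 for those of 5644 bases or more. All 14 oocyte markers had counts in both stages, summing to 7534 to 30062 CPM in GV and 5377 to 7769 CPM in MII oocytes, with Zp3, a zona pellucida protein, the most abundant. Of 16 cumulus and granulosa markers, 15 had counts in GV and 9 in MII; their sum was 105 to 342 CPM and 17.6 to 81.5 CPM, with Nr5a2 at the top in both. Amh, Inha and Foxl2 were at 0 in MII, and the part of these cells in the results was not tested.

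Of the 10 genes, 8 passed the level of 5 CPM, and Ppp1r2 and Ppp2cb did not. Relative to the median gene, 2 of the 8 were at least 2-fold higher in MII, Ppp1r11 and, just at the limit, Ppp1ca. Of all measured genes 12.1% were at least 2-fold higher and 15.5% at least 2-fold lower, and none of the 8 was in the second class. The other 6 lay within 2-fold. Ppp1r11 alone was at least 4-fold higher, as were 1.96% of all measured genes. The median ratio of the 8 was 0.24, inside the quartiles of all measured genes, −0.59 and 0.54. In plain CPM, without reference to the median gene, Ppp1cb, Ppp2ca and Ensa had ratios below 0 (−0.78, −0.71 and −0.11) where they were above 0 relative to the median gene, and Ppp1ca stood at 0.02.

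**Figure D1:**
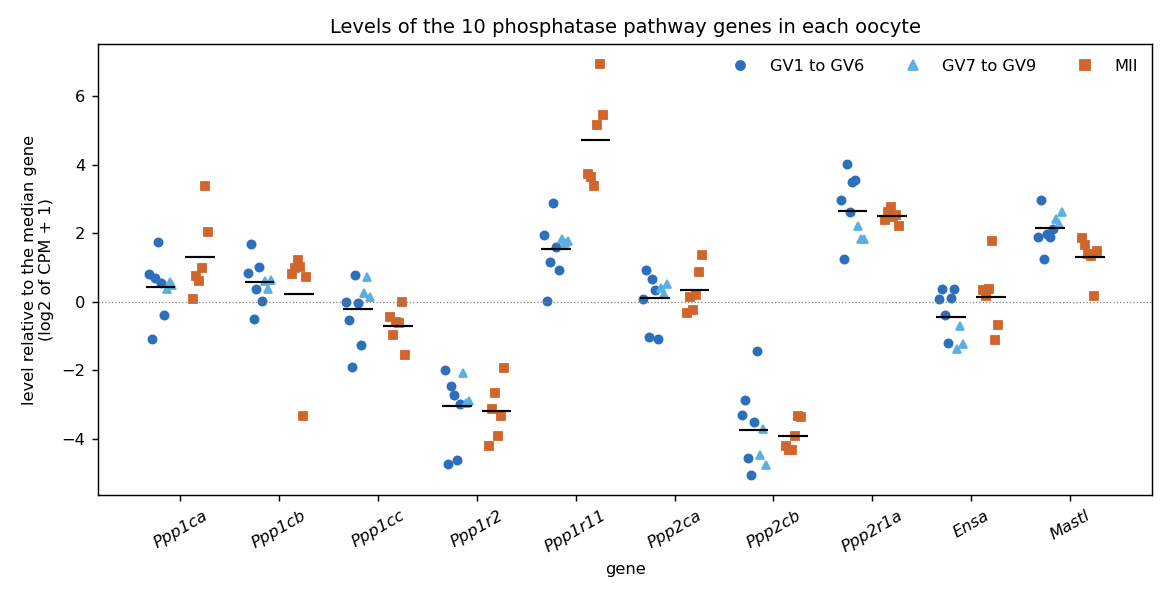
Level of each gene in each oocyte, on the log2(CPM + 1) scale after subtraction of the median measured gene; circles and triangles are GV oocytes by file set, squares MII oocytes, and black bars stage means. Ppp1r11 is the one gene with every MII oocyte (3.37 to 6.92) above every GV oocyte (0.01 to 2.88), and the lowest points of Ppp1r2 and Ppp2cb stand for 0 counts.

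Ppp1r11 encodes inhibitor-3, a small protein that binds PP1 catalytic subunits and blocks their activity. Its level in the GV oocytes ranged from 25.6 CPM in GV2 over a median of 84.9 CPM to 240 CPM in GV4. The MII oocytes had 242 CPM in MII1, 247 CPM in MII2, 205 CPM in MII3, 539 CPM in MII4, 1225 CPM in MII5 and 455 CPM in MII6. MII4, MII5 and MII6 were all above MII1 to MII3, and only GV4 reached the lowest MII oocyte. In CPM, none of the 8 measured genes had all MII oocytes above all GV oocytes (0.0892% of measured genes did) or all below (4.65%). The summed counts were 4162 in GV and 4981 in MII, although the MII oocytes held fewer counts in all. The ratio relative to the median gene was 3.43 ± 1.59, at rank 35 of 10090 from the top and rank 20 of the 9304 protein-coding genes. Relative to the median gene the stages did not overlap, which was so for 1.61% of measured genes in this direction. The ratio was 2.86 without MII5 and 3.74 without GV4, 2.52 without MII5 and MII6, and 2.45 in plain CPM. With GV1 to GV6 as the only GV oocytes it was 3.41, and with GV7 to GV9 it was 3.39. Relative to genes of the same class of transcript length and GC content (5 classes of each; 1599 bases and 52.2% GC for Ppp1r11) it was 3.42.

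Ppp1r2 encodes inhibitor-2, the other small PP1 inhibitor in the set, and was near the limit of detection. It had 133 counts over the GV oocytes, from 0 in GV2 to 37 in GV1, and 9 counts over the MII oocytes, all in MII2, MII3 and MII6. Its CPM was 3.03 in GV and 0.934 in MII, lower by a factor of 3.24 (95% counting interval 1.66 to 7.25). The log2 ratio of the median gene in the same unit was −0.98. Of the 50-base words of Ppp1r2, 9.93% also occur in 5 annotated copies. Among these, Ppp1r2-ps3 had 18 counts in GV and 11 in MII, so the counts of Ppp1r2 carry that uncertainty. The log2 ratio of Ppp1r11 to Ppp1r2 within an oocyte, in counts per kb of exons, was 6.57 ± 1.65 (SD, n = 9) in GV and 10.02 ± 2.21 (SD, n = 6) in MII, with overlapping ranges.

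The letters at the transcript ends were examined because storage and activation of maternal mRNA in oocytes depend on 3′-end elements, the cytoplasmic polyadenylation element (CPE) and the poly(A) signal. In the last 100 bases of the longest coding transcript, on the transcript strand only, a CPE written as TTTTAT or TTTTAAT was found in 17.8% of 19772 genes and a poly(A) signal written as AATAAA or ATTAAA in 78.6%. Of the 10 genes, 8 had a signal, all but Ppp2cb and Mastl, and 1 had a CPE, Ppp2r1a. The 30-base stretches below, from the GENCODE M21 transcripts (GRCm38), show the CPE of Ppp2r1a, the end of Ppp1r11, and the ends of the 2 Greatwall substrates, with the matched letters in capitals.
Ppp2r1a: tTTTTATTTTATtcctttccctactgtaca
Ppp1r11: agatgcacaaAATAAAtaacccaacattgc
Ensa: atttaaAATAAAacaacaaaaaatacccac
Arpp19: AATAAAtggatctacctaatTTTTATtgat
The last CPE match of Ppp2r1a starts 30 bases before its poly(A) signal, which lies beyond the stretch shown, and in Arpp19 the CPE follows the signal. A match is a run of letters and not a tested site.

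The PP1 catalytic subunits Ppp1ca, Ppp1cb and Ppp1cc encode the alpha, beta and gamma forms, which share most of their sequence and bind partly different regulators. Ppp1ca was at 11.5 CPM in GV2, a median of 37.4 CPM and 109 CPM in GV4 among GV oocytes, and at a lowest 18.5 CPM in MII1, a median of 31.0 CPM and 105 CPM in MII5 among MII oocytes. These ranges overlapped almost wholly, and GV2, GV4 and MII5 were the outlying oocytes. The ratio relative to the median gene was 1.004 ± 1.44, 0.44 without MII5 and 0.07 without MII5 and MII6. Against genes of like transcript length and GC content it was 0.73. Exons of Ppp1ca are overlapped over 16.5% of their bases on the other strand, by Rad9a and a second annotated transcript. Rad9a itself had 210 counts in GV and 0 in MII, and reads of the 2 strands cannot be told apart where strand was not used in counting.

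Ppp1cb ran from 15.6 CPM over a median of 41.5 CPM to 83.7 CPM in GV oocytes. In MII it was at 0 in MII5, at a median of 29.96 CPM and at most 45.8 CPM in MII3. MII5 is the exception, since the other 5 MII oocytes lay inside the GV range; a count of 0 in MII5 allows up to 1.82 CPM. The ratio was 0.21 ± 1.86, and 0.38 without MII5. Ppp1cc was at 5.21 CPM, a median of 26.7 CPM and 55.7 CPM in GV, and at 2.56 CPM, a median of 9.15 CPM and 12.4 CPM in MII. Its ratio of −0.71 ± 1.04 was within the spread between oocytes. Of its 50-base words, 58.8% also occur in other annotated genes, chiefly Ppp1ccb and processed copies, so its counts are uncertain; Ppp1ccb had 316 counts in GV and 19 in MII. None of the 50-base words of Ppp1r11 or Ppp1cb occurs in another gene.

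Within each oocyte the 3 PP1 catalytic subunits were compared per kb of exons, a measure that needs neither total nor median gene. Ppp1ca held 56.5% ± 15.2 (SD, n = 9) of the summed PP1 catalytic level in GV and 71.8% ± 15.97 (SD, n = 6) in MII. Ppp1cb held 16.4% ± 11.3 and 14.1% ± 8.46. Ppp1cc held 27.1% ± 8.82 in GV and 14.1% ± 8.20 in MII, a difference of −13.1 percentage points beside a combined spread of 12.04. The ranges of all 3 shares overlapped between stages. Ppp1ca was the largest share in every oocyte except GV2, where Ppp1cb held 44.5%.

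The log2 ratio of Ppp1r11 to the summed PP1 catalytic level was 0.61 ± 0.42 (SD, n = 9) in GV and 3.27 ± 0.65 (SD, n = 6) in MII. The lowest GV oocyte was GV2 at −0.41, and the other 8 lay between 0.50 and 0.94. The MII oocytes lay between 2.41 in MII3 and 4.03 in MII4. The stages were apart in this measure, with a difference of 2.66 beside a combined spread of 0.77. This ratio was less variable than the level of Ppp1r11 itself, whose spread was 1.59. It contains the counts of Ppp1r11, on which the set was chosen. GV1 to GV6 had a mean of 0.56 and GV7 to GV9 of 0.72.

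**Figure D2:**
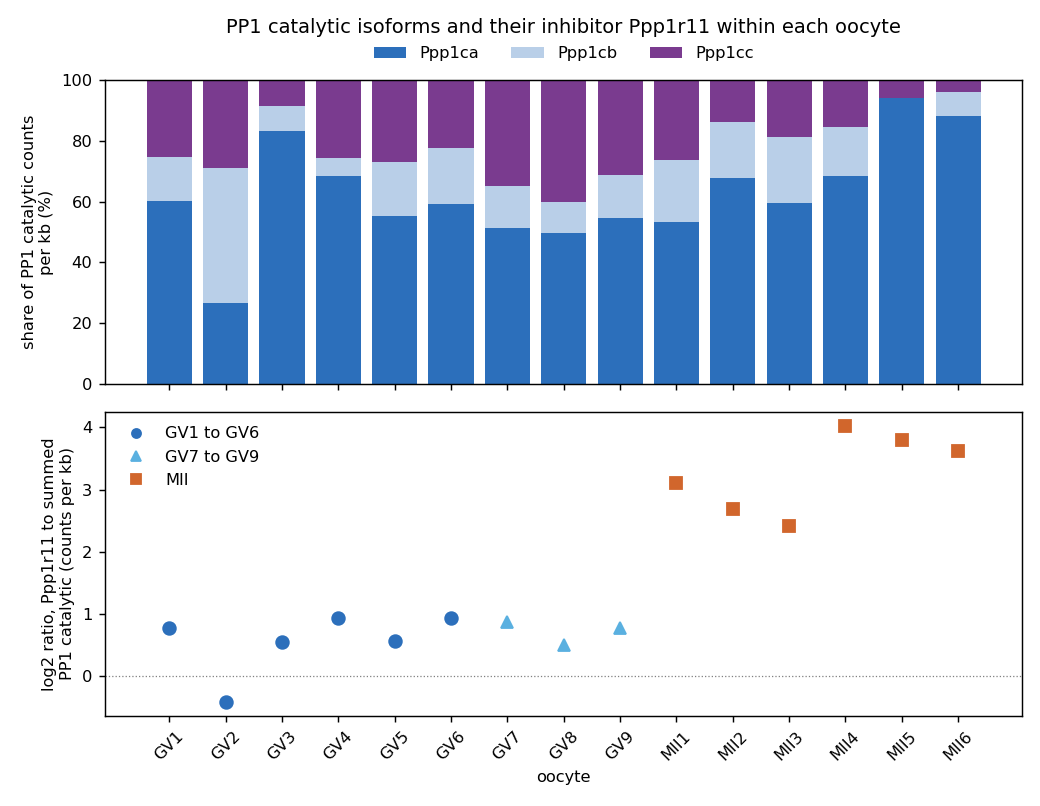
Top, share of Ppp1ca, Ppp1cb and Ppp1cc in the summed PP1 catalytic level (counts per kb of exons, %) of each oocyte; bottom, log2 ratio of Ppp1r11 to that sum. The GV oocytes lie between −0.41 and 0.94 and the MII oocytes between 2.41 and 4.03, while the isoform shares overlap between stages.

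Oocytes with much Ppp1r11 also had much Ppp1ca. Pearson's r of their levels relative to the median gene was 0.94 over the 9 GV oocytes and 0.93 over the 6 MII oocytes. Without GV2 and GV4, the GV oocytes farthest from the median of Ppp1ca, r was 0.65 over 7 oocytes, and without MII5 it was 0.80 over 5. Both genes are in the shortest of 5 classes of transcript length and in the upper 2 classes of GC content (1473 bases and 56.1% GC for Ppp1ca). Ppp1cb and Mastl have transcripts of 5962 and 5590 bases, in the upper 2 length classes, and 40.8% GC each, in the lowest class. Ppp1ca and Mastl had r = −0.57 in GV and −0.89 in MII, whereas Ppp1cb and Mastl had r = 0.72 and 0.92. Without MII5, r of Ppp1cb and Mastl was −0.48 over 5 oocytes, so the MII value rests on that oocyte. In MII5, Ppp1ca stood 2.79 and Ppp1r11 2.95 above the mean of MII1 to MII4, while Ppp1cb and Mastl differed from it by −4.34 and −1.40. Points of a pair come from the same libraries and share their depth, and the part of transcript length in these relations was not tested.

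**Figure D3:**
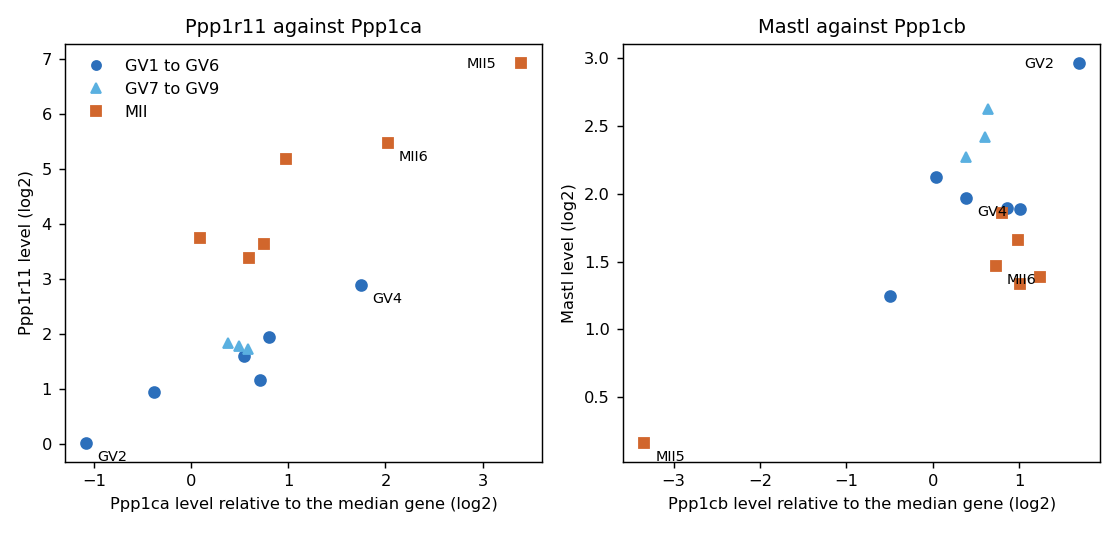
Levels relative to the oocyte's median gene (log2) of Ppp1r11 against Ppp1ca (left) and of Mastl against Ppp1cb (right); each point is 1 oocyte, marked by stage and file set. MII5 is the highest oocyte in both genes on the left and the lowest in both on the right.

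The 5 genes with the pattern most like that of Ppp1r11 over the 15 oocytes, among 5737 protein-coding genes compared, were Banf1 (r = 0.97), which encodes a chromatin-binding protein, Rab3b (r = 0.96), a small GTPase, Rnf187 (r = 0.95), a RING-finger protein, Dynlrb1 (r = 0.95), a dynein light chain, and Igfbp7 (r = 0.95), a secreted binding protein. The likeness was closer among MII oocytes, with r from 0.95 for Igfbp7 to 0.99 for Banf1, than among GV oocytes, with r from 0.50 for Igfbp7 to 0.77 for Dynlrb1. All 5 had ratios above 0, from 1.80 ± 0.93 for Rnf187 to 2.73 ± 1.54 for Rab3b, so the stage difference is part of the likeness. Banf1, Dynlrb1 and Igfbp7 are in the shortest class of transcript length, as is Ppp1r11. Rnf187 (1949 bases) and Rab3b (3327 bases) are in longer classes, and all but Rab3b are in the highest class of GC content. The part of length and GC content in the likeness was not tested.

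Of 43 regulators and targeting subunits of PP1, 40 had counts in some oocyte and 23 were measured. None was at least 2-fold higher, against 12.1% of all measured genes, and 1 was at least 2-fold lower, against 15.5%. The median ratio was 0.22. The most abundant was Mki67, a coat protein of mitotic chromosomes that binds PP1, with 587 CPM in GV, 324 CPM in MII and a ratio of 0.13 ± 1.75, which was −0.62 without MII2 and −0.47 against GV7 to GV9 alone. The highest ratio was that of Ppp1r9b, an actin-binding targeting subunit, at 0.93 ± 1.34. It was 2.16 with GV7 to GV9 as the only GV oocytes, 0.65 with GV1 to GV6 and −0.05 in plain CPM. Phactr2, an actin- and PP1-binding protein, had the lowest, −1.08 ± 1.79, from 12 counts in MII; it was −0.21 without GV6, −2.23 without MII4 and −0.10 against GV7 to GV9 alone. Ppp1r7, chosen after its values were seen, encodes Sds22, which forms a complex with PP1 and inhibitor-3. It was the one measured gene of the list whose stages did not overlap relative to the median gene, at 1.49 to 2.19 in GV and 2.21 to 3.24 in MII, beside 1.61% of all measured genes with MII above GV in this way and 0.684% with MII below. Its CPM was 101 in GV and 86.6 in MII, with a ratio of 0.76 ± 0.48 relative to the median gene and −0.23 in plain CPM.

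Ppp2r1a encodes the alpha scaffold, to which catalytic and regulatory subunits of PP2A bind, and was the most abundant of the 10 genes per kb in GV. Over Ppp1r11, the next gene, it led by a log2 difference of 0.32 ± 1.15, within the spread and in 5 of 9 oocytes. Its level was 61.9 CPM in GV2, a median of 200.4 CPM and 377 CPM in GV3. In MII it was 46.8 CPM in MII6, a median of 89.0 CPM and 135 CPM in MII3. The ratio relative to the median gene was −0.44 ± 0.95. Its sign depended on the set of GV files, −0.69 when only GV1 to GV6 were used and 0.59 when only GV7 to GV9 were. GV7 to GV9 had 96.3 to 107 CPM, and of GV1 to GV6 only GV2 was lower.

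Ppp2ca encodes the alpha catalytic subunit of PP2A. It ran from 10.4 CPM over a median of 35.4 CPM to 51.4 CPM in GV and from 13.6 CPM over 16.8 CPM to 25.6 CPM in MII. The MII oocytes lay within the GV range, and the ratio was 0.27 ± 0.97. It was −0.05 without MII6 and −0.19 without MII5 and MII6. An antisense gene, 9430098F02Rik, overlaps much of its exons and had 0 counts.

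The beta catalytic subunit, Ppp2cb, had 81 counts over the GV oocytes and 0 over the 6 MII oocytes. GV6 alone held 44 of the 81 counts (9.07 CPM), 4 other GV oocytes had 5 to 12 counts, and GV3, GV4, GV7 and GV9 had 0. Against a floor of 3 counts over the MII stage, 0.311 CPM, it was at least 5.92-fold lower in MII, in plain CPM. Without GV6 it was at least 3.04-fold lower, from 37 counts, and Ppp2cb was below the level for a measured gene. By file set, GV1 to GV6 held 76 of the counts and GV7 to GV9 held 5. The latter had a mean of 0.443 CPM, close to the MII floor, so the lower value in MII rests on GV1 to GV6. The log2 ratio of the median gene in plain CPM was −0.98. Ppp2ca made up 94.5% of the summed counts of both genes in GV (exact binomial interval 93.2% to 95.6%, counting error only) and all 185 counts in MII (lower limit 98.0%). Per oocyte and per kb, Ppp2ca held 82.1% ± 25.4 (SD, n = 9) in GV, with 20.5% in GV6, and 100% in each MII oocyte. It held 75.9% ± 29.3 in GV1 to GV6 and 94.5% ± 9.53 in GV7 to GV9. Each MII oocyte had only 11 to 60 counts of Ppp2ca, so a small share of Ppp2cb could be missed there.

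The coding sequences of Ppp2ca and Ppp2cb are printed over their last 60 bases to show how far counts of these paralogues can be assigned, with the bases that differ in capitals (GENCODE M21, GRCm38).
Ppp2ca: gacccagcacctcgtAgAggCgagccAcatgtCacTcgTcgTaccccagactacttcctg
Ppp2cb: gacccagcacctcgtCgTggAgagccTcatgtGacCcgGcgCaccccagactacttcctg
These 60 bases hold 8 differences. Over the whole coding sequence of 927 bases each, 757 positions (81.7%) are identical and the longest shared run has 25 bases. No 50-base word of Ppp2cb occurs in another gene. Of the 50-base words of Ppp2ca, on either strand, 43.2% occur in other genes, so its counts carry that uncertainty. Of its 100-base words, 40.1% occur in 9430098F02Rik and Gm24157, which both had 0 counts. The genes lie on chromosomes 11 (Ppp2ca) and 8 (Ppp2cb).

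Of 30 regulatory subunits and modulators of PP2A, 29 were measured. Of these, 6 were at least 2-fold higher and 3 at least 2-fold lower, against 12.1% and 15.5% of all measured genes, and the median ratio was −0.02. Those outside the rule for named genes were named after their values were seen. Among the B55 subunits, the class inhibited by phosphorylated Ensa, Ppp2r2d had the highest ratio of the list, 2.46 ± 1.43. It was at 10.6 CPM, a median of 34.7 CPM and 40.7 CPM in GV. In MII it was at 146 CPM in MII1, 170 CPM in MII2 and 202 CPM in MII3, and at 29.0 CPM in MII4, 15.2 CPM in MII5 and 18.3 CPM in MII6. The first 3 were above every GV oocyte and the last 3 within the GV range in CPM, the reverse of the order seen for Ppp1r11.

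Ppp2r2a, another B55 gene, had a ratio of −0.19 ± 0.69, and Ppp2r2b one of −0.58 ± 0.88. Ppp2r2c had −2.33 ± 2.11 from 249 counts in GV and 5 in MII, and 116 and 117 of its GV counts came from GV1 and GV2. The other 16 were in GV6, and it was at 0 in the remaining 6 GV oocytes and in 4 of 6 MII oocytes. Without GV1 and GV2 its level was 0.459 CPM in GV and 0.519 CPM in MII, so the lower value in MII rests on those 2 oocytes.

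Of the B56 subunits, Ppp2r5d was the most abundant gene of the list per kb and had a ratio of 1.35 ± 0.74, with 307 CPM in GV and 397 CPM in MII. Ppp2r5a had −1.73 ± 0.88, with 16.6 CPM in GV and 2.49 CPM in MII, and −0.56 against GV7 to GV9 alone. Bod1, an inhibitor of PP2A-B56 at kinetochores, was at 38.2 CPM, a median of 96.4 CPM and 170 CPM in GV and at 108 CPM, a median of 271 CPM and 394 CPM in MII. Its ratio was 2.28 ± 0.70, and its stages did not overlap relative to the median gene (0.74 to 2.38 against 3.43 to 4.43). Pabir2, of a family of PP2A-B55 inhibitors, had 1.42 ± 0.51 and also did not overlap (0.54 to 1.68 against 2.11 to 3.003). No other measured gene of the list had stages apart, beside 1.61% of all measured genes with MII above GV and 0.684% with MII below. Anp32a and Cip2a, both known as PP2A inhibitors, had 1.77 ± 1.24 and 1.15 ± 1.84. Cip2a was at 0.97 against GV1 to GV6 alone and 0.98 without MII2. In plain CPM, of the 6 only Ppp2r2d (1.48) and Bod1 (1.30) were at least 2-fold higher. Lcmt1, which methylates the end of the PP2A catalytic subunit, had −1.55 ± 1.29, with 23.1 CPM in GV but 3.945 CPM in MII.

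The other catalytic subunits of the same phosphatase family, 8 genes of which 7 were measured, had a median ratio of −0.49. None was at least 2-fold higher and 1 of the 7 at least 2-fold lower, beside 12.1% and 15.5% of all measured genes. That gene was Ppp5c, at −1.45 ± 1.26. Ppp4c, the most abundant, had −0.49 ± 1.496, and 0.26 against GV7 to GV9 alone. Ppp3cc, a calcineurin catalytic subunit, had the highest ratio, 0.78 ± 1.17, and −0.20 in plain CPM.

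Mastl, the Greatwall kinase, was at 54.3 CPM in GV3, a median of 126 CPM and 204 CPM in GV2. In MII it was at 65.5 CPM in MII1, 62.4 CPM in MII2, 50.9 CPM in MII3, 36.8 CPM in MII4, 10.3 CPM in MII5 and 27.7 CPM in MII6. In CPM only GV3 lay within the MII range. Relative to the median gene the ratio was −0.69 ± 0.77, within the spread, and it was −0.58 without MII5. In plain CPM it was −1.67, beside −0.98 for the median gene.

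Ensa was at 7.54 CPM in GV7, a median of 17.5 CPM and 35.2 CPM in GV1. In MII it was at 22.3 CPM in MII1, 21.7 CPM in MII2, 24.7 CPM in MII3, 49.7 CPM in MII4, 3.64 CPM in MII5 and 5.54 CPM in MII6. In CPM, MII4 was above every GV oocyte and MII5 and MII6 below every one. Relative to the median gene, MII5 (−1.12) and MII6 (−0.67) lay within the GV range of −1.39 to 0.39. MII4 (1.76) was above that range. The ratio was 0.88 ± 1.23, 0.26 without MII4 and 1.68 against GV7 to GV9 alone.

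Arpp19, the second Greatwall substrate, was measured with 100.1 CPM in GV, 38.1 CPM in MII and a ratio of −0.41 ± 0.95. Within an oocyte the log2 ratio of Ensa to Arpp19 per kb was −2.33 ± 1.36 (SD, n = 9) in GV and −1.34 ± 1.11 (SD, n = 6) in MII, with overlapping ranges. The log2 ratio of Mastl to Ensa was 2.55 ± 0.94 in GV and 1.11 ± 0.91 in MII, a difference of −1.43 beside a combined spread of 1.31. Its ranges overlapped too, at 1.57 to 3.86 in GV and −0.54 to 2.17 in MII, and GV1 to GV6 lay nearer to MII. The GV sets differed in both measures, with −1.71 ± 1.24 in GV1 to GV6 and −3.56 ± 0.34 in GV7 to GV9 for Ensa to Arpp19, and 2.05 ± 0.64 and 3.54 ± 0.53 for Mastl to Ensa.

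Of 8 partners of the Greatwall pathway, all measured, 2 were at least 2-fold higher, Ppp2r2d and Cdk1, and 2 at least 2-fold lower, Ppp2r2c and Ccnb1; the background is 12.1% and 15.5%. The median ratio was −0.49. Cdk1, the kinase whose substrates PP2A-B55 dephosphorylates, had a ratio of 1.71 ± 1.32 from low levels, 6.81 CPM in GV and 11.2 CPM in MII. It was 2.06 with GV1 to GV6 as the only GV oocytes but 0.90, under 2-fold, with GV7 to GV9, and 0.72 in plain CPM. Ccnb1, which encodes cyclin B1 and was the most abundant partner, was at 174 CPM, a median of 248 CPM and 509 CPM in GV, and at 27.3 CPM, a median of 71.8 CPM and 119.95 CPM in MII. Its ratio was −1.08 ± 0.64, and it was just under 2-fold, at −0.94, with GV1 to GV6 as the only GV oocytes, −0.97 without GV8 and −0.97 without MII3. Every MII oocyte lay below every GV oocyte, in CPM and relative to the median gene, the latter so for 0.684% of measured genes. Processed copies share 42.1% of the 50-base words of Ccnb1, so its counts carry that uncertainty. Ccnb2, cyclin B2, had −0.78 ± 1.68, with 0.08 relative to GV1 to GV6 and −2.06 relative to GV7 to GV9, so its direction depended on the GV file set. Its GV sets did not overlap and differed by 2.21, with GV7 to GV9 higher. Of 10764 genes measured between the GV sets, 10.7% were apart in this direction and 18.1% were at least 2-fold higher.

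**Figure D4:**
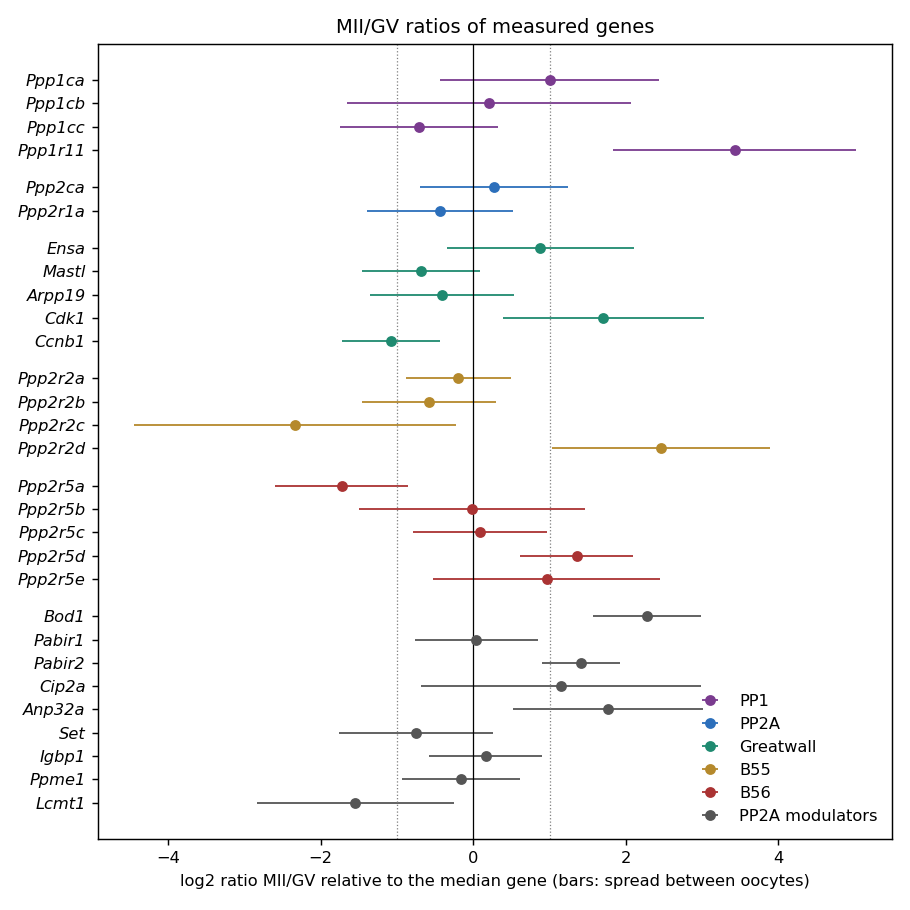
Log2 ratio MII/GV relative to the median measured gene, for the 8 measured genes of the set and for selected PP2A and Greatwall genes; bars are the spread between oocytes and dotted lines mark 2-fold. Ppp1r11 (3.43), Ppp2r2d (2.46) and Bod1 (2.28) lie farthest to the right, and in plain CPM every point lies 0.98 further to the left.

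Per kb of exons, the order in GV was Ppp2r1a (66.2 CPM per kb), Ppp1r11 (48.0), Mastl (21.3), Ppp1ca (17.5), Ppp1cc (7.80), Ppp2ca (4.21), Ensa (4.19), Ppp1cb (3.93), Ppp2cb (1.26) and Ppp1r2 (0.682). Neighbours in that order differed within oocytes by more than their spread at 3 steps: Ppp1ca over Ppp1cc (log2 difference 1.07 ± 0.90), Ppp1cc over Ppp2ca (0.80 ± 0.57) and Ppp1cb over Ppp2cb (1.41 ± 1.19). In MII the order was Ppp1r11 (262 CPM per kb), Ppp2r1a (24.7), Ppp1ca (17.7), Mastl (6.67), Ensa (3.88), Ppp2ca (2.56), Ppp1cc (2.40), Ppp1cb (2.29), Ppp1r2 (0.210) and Ppp2cb (0). Here the steps beyond the spread were Ppp1r11 over Ppp2r1a (3.0025 ± 1.47, in 6 of 6 oocytes), Mastl over Ensa (1.06 ± 0.86) and Ppp1cb over Ppp1r2 (2.13 ± 1.88). These differences include the added 1 CPM, which with exon length sets the level of a gene at 0 counts. Ppp2cb was at 0 in GV3, GV4, GV7 and GV9, Ppp1r2 in MII1, MII4 and MII5, and Ppp1cb in MII5. The size of the steps to Ppp2cb and Ppp1r2 therefore rests in part on that constant. Per kb of the longest coding transcript, Ppp1r11 and Ppp2r1a kept the first 2 places in both stages, but other places changed. Ppp1ca moved above Mastl in GV (29.9 and 22.0 CPM per kb). Ppp1cb moved above Ensa and Ppp2ca in GV and above Ppp1cc and Ppp2ca in MII. Mastl over Ensa in MII was then within the spread (0.63 ± 0.86). Steps beyond the spread then included Ppp1r11 over Ppp1ca in GV (0.996 ± 0.28) and Ppp1ca over Mastl in MII (1.92 ± 1.76).

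Between the sets of GV files, 8 of the 10 genes were measured. In GV7 to GV9 none was higher by 2-fold or more, against 18.1% of 10764 measured genes, and Ppp2r1a was at least 2-fold lower (−1.22), against 20.2%. None of the 8 had sets apart, against 10.7% and 6.06% of measured genes in the 2 directions. Ensa stood at −0.96 and Ppp1cc at 0.71, and Ppp1r11 at 0.08.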

How the data were processed

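The authors deposited whole-number counts per Ensembl gene ID, 1 table per oocyte, per the file headers and values; genes missing from a table were taken as 0. Per the submitters' processing notes, reads were handled with STAR 2.7.10a and cutadapt 4.0 on GRCm39. For the counting tool, its annotation and its use of strand: not given in the sources used here. Genes, lists and comparisons were chosen with earlier results of these data known. Symbols, transcripts and exon lengths came from GENCODE M21 (GRCm38), which named 28402 of 28785 IDs (98.7%). Exon positions of that annotation served for overlaps, strand and chromosomes; no coordinates are printed. Of 153 list entries, 151 matched by symbol and 2 by older symbol.

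Counts were summed per stage, scaled to CPM, and ratios taken after adding 0.5 to each sum; levels per oocyte used log2(CPM + 1). Intervals are exact Poisson or Clopper-Pearson at 95%, and the floor is 3 counts; PCR reads are not independent molecules, so these cover counting error only. The 51 pairs of oocytes of 1 stage had chi-square values per degree of freedom of 7.26 or more, so no library was counted as a repeat. Named genes were the 10 genes and, per list, the most abundant measured gene and the extremes of the ratio, plus the 5 genes with at least 20 CPM most correlated with Ppp1r11 and the top marker of each marker list. Theca and stroma, blood and immune, and oviduct markers summed to at most 27.2, 4.61 and 11.5 CPM in any oocyte, with Col1a1, Fcer1g and Pax8 the most abundant. The ratio formulas were run on simulated counts with known folds, drawn with Poisson error only. This checked the arithmetic and not the variation between oocytes or libraries. The alternatives were other scalings, among them TMM (edgeR 4.0.16) and median-of-ratios (DESeq2 1.42.0), other filters and pseudocounts, means or medians over oocytes, each GV file set alone and leaving out oocytes; a reference of genes with like transcript length and GC content and lengths of the longest coding transcript were added after seeing the data. Work was done in Python 3.11.15 with pandas 2.3.3, numpy 2.4.6 and scipy 1.17.1, and R 4.3.3.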

Additional observations from a re-analysis of the deposited data

Results flagged for a closer look

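In 5 of 34 groups of oocytes examined, a value stood apart from the rest of their stage by the gap to the nearest oocyte. The cutoff is set so that chance flags about 1 in 20 groups. The groups share oocytes and genes, so the flags are not independent and cannot be weighed against that rate. MII5 accounted for 2: Ppp1cb was at −3.34 relative to the median gene (0 CPM), while the other MII oocytes were at 0.73 to 1.23 on that log2 scale, and Mastl was at 0.16 on it (10.3 CPM), with the others at 1.33 to 1.86. In GV2, Ppp1cb made up 44.5% of the PP1 catalytic level (others 6.04% to 18.4%), and the log2 ratio of Ppp1r11 to that level was −0.41 (others 0.50 to 0.94). In GV6, Ppp2ca made up 20.5% of the PP2A catalytic level (others 73.5% to 100%).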

How the results depend on the processing

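Depth limits the rare genes: a count of 0 over the MII stage allows 0.311 CPM. Ppp1r2 and Ppp2cb, below the level for a measured gene, were not ranked by ratio. Across all alternatives Ppp1r11 had a ratio above 0 and at least 2-fold. The number of genes of the set at least 2-fold higher was 2. It was 1 where Ppp1ca, at the limit, went below it and no other gene passed: with the mean of CPM over oocytes, TMM, median-of-ratios scaling, plain CPM, totals without the unnamed feature, no filter, 1 added to each sum, GV1 to GV6 alone, and genes of like length and GC. It was 3 against GV7 to GV9 (Ppp1r11 3.39, Ensa 1.68 and Ppp1ca 1.155), and 2 with medians over oocytes, where Ensa (1.10) passed and Ppp1ca (0.50) did not. Leaving out single oocytes gave 1 to 2, and without MII5 or MII6 the second gene was Ensa (1.01 and 1.02). The number at least 2-fold lower was 0, but 3 in plain CPM, 2 without the unnamed feature and against GV7 to GV9 alone, and 1 with a filter of 1 CPM or none. The median of the set was 0.24, −0.74 in plain CPM and −0.26 with no filter, and 0.08 to 0.35 when single oocytes were left out. Another scaling also moved the split of all genes: 56.1% of genes past 2-fold were lower in the main values, 64.7% with TMM, 61.0% with median-of-ratios, 96.1% in plain CPM and 73.3% without the unnamed feature.

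In plain CPM the medians were −0.77 (PP1 regulators), −1.0004 (PP2A regulators), −1.47 (other catalytic subunits) and −1.48 (Greatwall partners), with 8, 15, 5 and 6 genes at least 2-fold lower, and 2 PP2A regulators and 1 Greatwall partner at least 2-fold higher, where 49.1% of all measured genes were lower and 2.01% higher by that fold. PP1 regulators at least 2-fold higher, 0 in the main values, were 2 with medians over oocytes, 1 without the unnamed feature, 4 at 1 CPM, 2 with no filter, 4 against GV7 to GV9, and 0 to 2 without single oocytes. Those at least 2-fold lower, 1 in the main values, were 2 without the unnamed feature, 5 at 1 CPM, 9 with no filter, 2 against either GV set, 0 with genes of like length and GC, and 0 to 2 without single oocytes. Other catalytic subunits at least 2-fold lower were 3 without the unnamed feature, 2 without both MII5 and MII6, 2 with GV7 to GV9 as the GV oocytes, and 1 to 2 without single oocytes. Greatwall partners at least 2-fold lower were 1 at 1 CPM, against GV1 to GV6 and without GV1 and GV2, and 1 to 3 without single oocytes; 1 was at least 2-fold higher against GV7 to GV9. The fitted value of Ppp2r2c turned to 2.96 with medians over oocytes and 4.59 against GV7 to GV9, but the medians of both stages and all counts of GV7 to GV9 are 0, so these are set by the added constant and the median gene and give no direction. Without GV1 and GV2 it was 1.20, from 16 counts in GV and 5 in MII. Plain CPM shifts every ratio by construction; otherwise the cause was not tested. The shares and ratios within oocytes moved by less than their spread under each alternative. No paired analysis was possible because each result is a value from no test and the labels do not tie oocytes of the 2 stages together.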
